A study of Mus musculus with 6 samples.

Results

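In adult bone marrow, Trim28-deficient KSL cells carried less RNA of neutrophil and monocyte genes than wild-type KSL cells and more of several mast cell, platelet and globin genes, and a few genes at background in the wild type were more than 20-fold higher. The limma calls depended on the pairing of arrays. Without it 0 platelet, mast cell or globin genes passed, and the neutrophil and monocyte genes that fell went from 16 to 4 and from 11 to 5. They also depended on the source of wild-type (WT) replicate 1, and with its scanner file 0 genes passed. In that source the globin gains turned in pair 1, as did Upk1b and Ifi44l among the genes at background in WT. All of these statements rest on the authors' value table for 4 arrays, 2 of knockout (KO) and 2 of WT cells, out of 6 arrays in the series. The arrays were chosen by their tissue label and paired by replicate number. KSL cells are c-Kit positive, Sca-1 positive and lineage negative, the marrow fraction that holds the hematopoietic stem cells. WT cells were labelled CreERT, Tif1bw/w and KO cells CreERT, Tif1bf/f, both on C57BL6, so all 4 samples carried the CreERT transgene. The second pair is labelled Tif2bw/w and Tif2bf/f, which was read as the same allele. The promoter driving CreERT, the dose and timing of its induction, the age of the mice and the number of animals per sample are not given in the sources used here. The description lines of replicate 1 of both genotypes name a knockdown of Hp1a or Hp1g in c-Kit positive cells; titles and sources of the same samples read KSL with WT or KO, and groups follow these. The labels do not say how many animals stand behind a replicate. The 2 arrays of a genotype differ in sex-linked genes (below), so they are not repeats of 1 RNA sample. In the fit with the replicate pair as a block, a p-value rests on how far the 2 pair differences disagree, moderated by the spread shared over genes. Only without the block does it rest on the spread between the arrays of a genotype.

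Tif1b is the older name of Trim28, a corepressor without a DNA-binding domain of its own. KRAB zinc finger proteins bring it to DNA, where it recruits the histone methyltransferase Setdb1, HP1 proteins and histone deacetylases, so that genes and transposons nearby are kept silent. In the blood system, stem cells give rise to megakaryocytes, erythroid and mast cells through progenitors that depend on Gata factors, and to neutrophils and monocytes through progenitors that depend on Cebp factors, Pu.1 and Irf8.

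Each value below is a level, the log2 of the table's linear ratio minus the 75th percentile of that array's column. Each difference is KO minus WT on the log2 scale. A standard error, where given, comes from the fit with the replicate pair as a block, over 2 arrays per genotype. Trim28 had levels of 5.18 and 5.54 in WT replicates 1 and 2, and 1.28 and 0.75 in KO replicates 1 and 2. Both KO arrays lay below both WT arrays, and the difference was -4.34 ± 0.26 (limma adjusted p = 0.00355 with the replicate pair as a block, 0.0165 without it). No source used here places the single Trim28 probe relative to the deleted exons, and it is a check of the labels only where it falls inside them. Of the sorting markers, Kit (c-Kit) had levels of 4.16 and 4.35 in WT and 4.31 and 4.17 in KO and did not pass (difference -0.01 ± 0.18). Ly6a (Sca-1) had levels of 3.36 and 4.75 in WT and 3.6 and 6.04 in KO, higher in replicate 2 of either genotype, and its difference of 0.76 ± 0.29 did not pass (adjusted p = 0.199).

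The arrays of a pair shared a slide and a scan, and they also matched in genes linked to sex. Xist, the RNA that silences an X chromosome in female cells, was at 1.58 (WT) and 1.33 (KO) in pair 1 and at background, -6.80 and -6.80, in pair 2. Of 4 Y-linked genes, Kdm5d was at background on all 4 arrays and the other 3, Ddx3y, Eif2s3y and Uty, ran the other way. Ddx3y was at 1.20 and 1.31 in pair 2 and at background in pair 1 (-6.27 and -5.89), and Eif2s3y was at 2.51 and 2.02 against -6.51 and -6.07. Uty was at -2.92 and -3.01 against -6.27 and -5.80. Slide and sex-linked expression therefore differ between the pairs and not within them. These genes were looked at after their values were seen, and none was tested, since no group had them above background on both arrays.

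One array has conflicting sources. For WT replicate 1 the scanner file does not match its column in the value table: only 1.40% of probes with a ratio of at least 0.1 lay within 1% of a common scale, against 100% for each of the other 3 arrays. In that scanner file Trim28 was at 2.45, Kit at 1.30 and Ly6a at 4.48. The plot of target, sorting marker and sex-linked genes shows both sources. Results are given first with the table column and then with the scanner file.

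**Figure D1:**
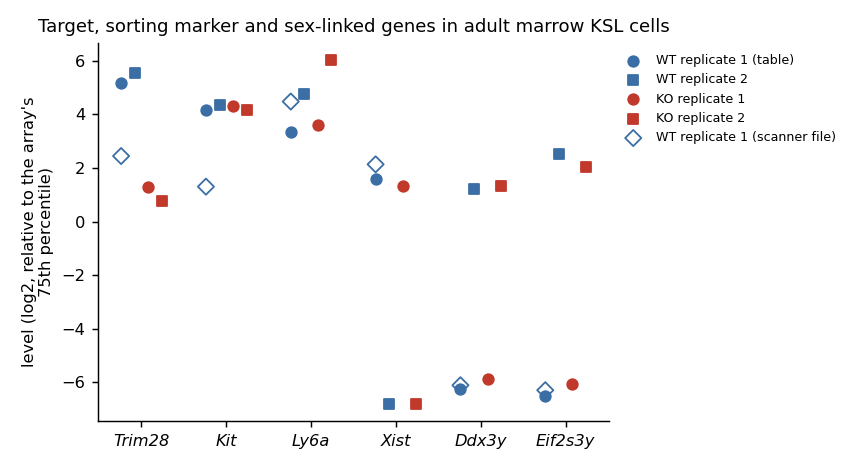
Level of Trim28, the sorting marker genes Kit and Ly6a, and the sex-linked genes Xist, Ddx3y and Eif2s3y on each of the 4 adult marrow arrays (y axis, log2 relative to the array's 75th percentile); circles are replicate 1, squares replicate 2, blue WT, red KO, and open diamonds the scanner file of WT replicate 1. Trim28 lies at 5.18 and 5.54 in WT and at 1.28 and 0.75 in KO, and Xist is above background in pair 1 alone.

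Most genes that differed at least 2-fold in both pairs did so in the same direction. Of 12889 genes tested, 341 were at least 2-fold higher in KO in both pairs and 366 at least 2-fold lower in both, while 7 went up in pair 1 and down in pair 2 by that much and 25 the reverse. The pairs share no array. Over these genes the pair differences correlated at r = 0.71 (Spearman rho = 0.59). Over the 12066 genes above background on all 4 arrays, where the filter favours neither direction, r was 0.67. Genes are not independent replicates, so no p is given. Pair 1 had the wider spread of differences (SD 0.83 over genes, against 0.74 in pair 2).

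In limma with the replicate pair as a block, 968 genes had an adjusted p (Benjamini-Hochberg over all genes tested) under 0.05 (7.51% of those tested), 500 higher in KO (3.88%) and 468 lower (3.63%). Without the block 112 passed (0.869%), 61 higher (0.473%) and 51 lower (0.396%), and all of them were among the 968. At an unadjusted p under 0.05 there were 3072 of the 12889 genes with the block and 1429 without it. The unadjusted counts of the lists below are to be read beside these totals, and a count near that share says nothing particular about a list. The blocked fit has 1 residual degree of freedom per gene and draws most of its precision from the spread shared over genes (prior degrees of freedom 3.96). The 2 KO and 2 WT values did not overlap for 4806 genes (37.3%), 2278 of them higher (17.7%) and 2528 lower (19.6%) in KO, so a lack of overlap alone was common. Among the called higher genes, 130 differed at least 4-fold and 50 were above background on no WT array. Among the called lower genes, 166 differed at least 4-fold and 75 were above background on no KO array. With the scanner file of WT replicate 1, limma called 0 genes (0.0%), with 706 at an unadjusted p under 0.05 with the block and 556 without it.

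**Figure D2:**
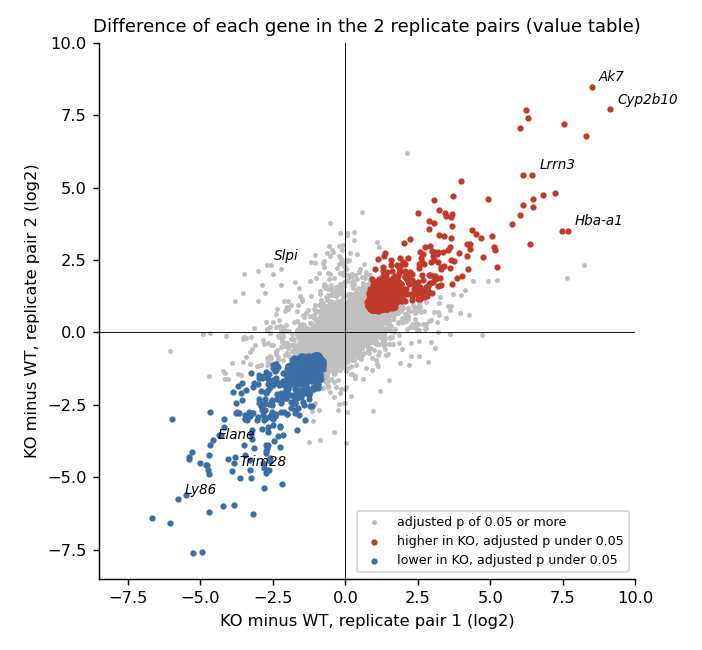
KO minus WT of each of the 12889 tested genes in replicate pair 1 (x axis) and pair 2 (y axis), both log2 from the value table; red and blue points passed higher or lower in KO in the blocked limma fit, grey points did not pass. Most genes far from 0 lie in the upper right or lower left, with r = 0.71, and Slpi is among those that went opposite ways.

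The genes that rose furthest from background included genes of metabolism and interferon-inducible genes. Ak7, an adenylate kinase of cilia, was at -6.51 and -6.97 in WT and 1.98 and 1.51 in KO, which in KO is a rise of at least 67.8-fold (adjusted p = 0.000702). Cyp2b10, a cytochrome P450 of xenobiotic metabolism best known from liver, was at -6.39 and -5.07 in WT and 2.75 and 2.63 in KO, at least 131-fold higher (0.00233). Ppp1r3g, a subunit that brings protein phosphatase 1 to glycogen, was at -6.06 and -6.80 in WT and 1.47 and 0.40 in KO, at least 38.7-fold higher (0.00112). All 3 passed without the block as well, and no WT array was above background for any of them. The interferon-inducible genes Gbp2b and Ifi44l and the uroplakin gene Upk1b, a membrane protein of the urothelium, were at least 24.6-, 25.5- and 22.9-fold higher. Such a bound compares the KO mean with a WT mean in which each array counts at its dimmest detected signal, or at the probe's signal where that is brighter.

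The start regions of these first 3 genes are printed to show how they differ in CpG content, since Trim28 complexes are known to act with DNA methylation. Each line holds the 250 bases before the annotated start, 5′ to 3′ on the gene's strand, from RefSeq (GRCm38.p6), with every CG in capitals.
Cyp2b10: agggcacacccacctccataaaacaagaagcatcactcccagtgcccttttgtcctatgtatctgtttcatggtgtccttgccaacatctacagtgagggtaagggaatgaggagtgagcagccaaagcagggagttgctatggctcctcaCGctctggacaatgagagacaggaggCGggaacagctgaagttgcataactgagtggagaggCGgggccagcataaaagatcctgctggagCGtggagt
Ak7: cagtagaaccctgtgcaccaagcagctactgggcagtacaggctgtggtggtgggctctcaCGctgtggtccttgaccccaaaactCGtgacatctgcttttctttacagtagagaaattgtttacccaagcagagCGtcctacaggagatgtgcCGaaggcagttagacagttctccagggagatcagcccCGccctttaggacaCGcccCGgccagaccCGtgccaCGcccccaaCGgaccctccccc
Ppp1r3g: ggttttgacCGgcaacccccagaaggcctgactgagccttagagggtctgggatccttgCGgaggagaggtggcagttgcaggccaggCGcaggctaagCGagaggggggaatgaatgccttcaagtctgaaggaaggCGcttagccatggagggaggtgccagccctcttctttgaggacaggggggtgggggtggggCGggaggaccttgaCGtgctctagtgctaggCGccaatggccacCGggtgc
These windows are chr7:25897408-25897657, plus strand for Cyp2b10, chr12:105705732-105705981, plus strand for Ak7 and chr13:35967656-35967905, plus strand for Ppp1r3g. They hold 4, 10 and 9 CG dinucleotides, against a median of 6 (a CG in 92.1%) over 32851 windows of that length in the same table. The arrays hold no measurement of methylation, and the counts are descriptions of sequence alone.

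Among genes measured on all 4 arrays, the largest rises in both pairs were of Lrrn3, Scin, Pakap, Pirb, St8sia6, the alpha globins and Nccrp1. Lrrn3, a leucine-rich repeat membrane protein of neurons, was at -2.82 and -2.63 in WT and 3.64 and 2.81 in KO (difference 5.95 ± 0.28, adjusted p = 0.00289). Scin, the actin-severing protein scinderin known from megakaryocytes, was at -1.43 and -0.80 in WT and 5.05 and 3.82 in KO (5.55 ± 0.45, 0.00620). Pirb, an inhibitory receptor for MHC class I, was at -0.36 and -0.95 in WT and 3.34 and 2.71 in KO (3.68 ± 0.16, 0.00233). In all 3 the groups were far apart relative to the spread between the arrays of 1 genotype. Pakap and St8sia6, a sialyltransferase, differed by 5.27 ± 0.42 and 3.96 ± 0.25. Hba-a1 rose by 5.6 ± 0.95 but by unequal amounts, 7.68 and 3.52 in pairs 1 and 2, and did not pass without the block (adjusted p = 0.175). Hba-a1 and Hba-a2 are near-identical copies, so their probes may each read both.

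The largest falls on the same footing were of Ly86, Mpeg1, Igsf6, Mdga1, Elane, Dtx4 and F13a1, besides Trim28. Ly86, the partner of the Toll-like receptor homologue Cd180, was at 4.53 and 3.17 in WT and -1.25 and -2.60 in KO (difference -5.77 ± 0.16, adjusted p = 0.00118). Mpeg1, a pore-forming protein of macrophages, was at 4.14 and 3.33 in WT and -0.89 and -1.17 in KO (-4.76 ± 0.20, 0.00233). Elane, neutrophil elastase, was at 6.67 and 5.28 in WT and 2.00 and 1.41 in KO (-4.27 ± 0.24, 0.00355). All 3 passed without the block as well. Mdga1, a membrane protein of synapses and neuronal migration, fell by 4.20 ± 0.18. Igsf6, Dtx4 and F13a1, the A subunit of coagulation factor XIII made by monocytes and megakaryocytes, fell by 5.11 ± 0.43, 4.17 ± 0.22 and 4.89 ± 0.50, and these 3 did not pass without the block (adjusted p = 0.161, 0.0570 and 0.168).

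Other genes went from a clear WT level to background in KO. Atp8b5, a phospholipid flippase, was at 0.50 and 0.59 in WT and -6.17 and -5.80 in KO, at least 32.4-fold lower. Zfp874a, of the zinc finger family whose KRAB members bind Trim28, was at 0.23 and 0.29 in WT and -5.80 and -6.27 in KO, at least 26.6-fold lower. Celsr3, a cadherin of planar polarity, Aoah, a hydrolase that degrades bacterial lipopolysaccharide, Tmem178 and Kcng1, a potassium channel subunit, were at least 11.4-, 12.8-, 6.84- and 11.4-fold lower. Each of these passed with and without the block.

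**Figure D3:**
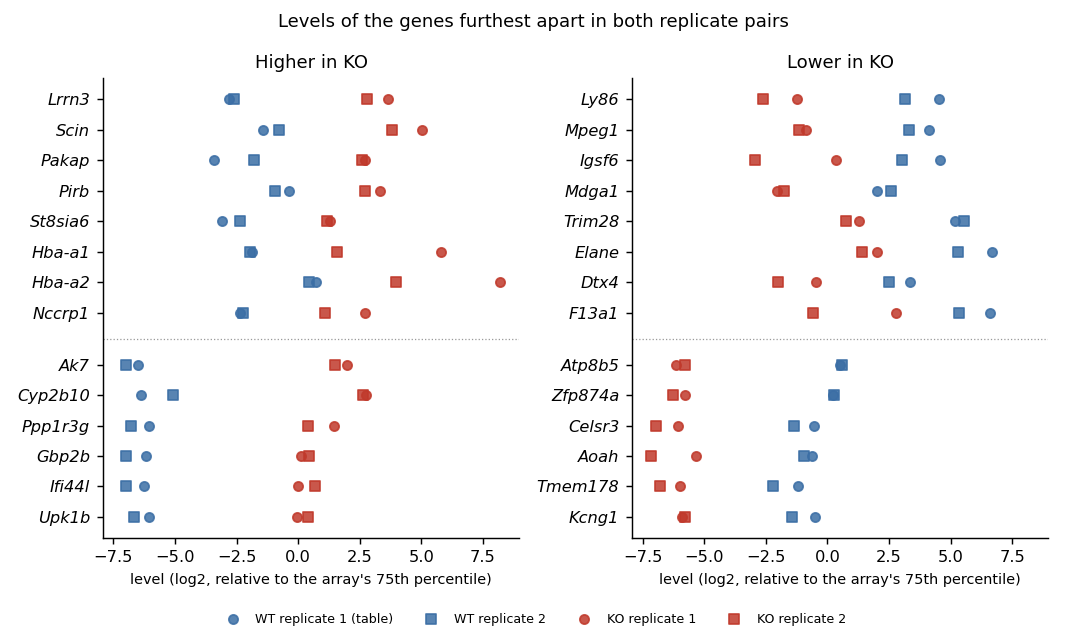
Level on each of the 4 arrays (x axis, log2 relative to the array's 75th percentile) of the genes with the largest smaller-of-both pair difference, higher in KO on the left and lower on the right; above the dotted line are genes measured on all 4 arrays, below it genes at background on both arrays of the dimmer genotype. Blue is WT and red KO, circles replicate 1 and squares replicate 2; in every gene shown the groups do not overlap, for example Ak7 at -6.51 and -6.97 in WT and 1.98 and 1.51 in KO.

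Most neutrophil genes fell. Of 26 granule and neutrophil genes tested (of 30 listed), 16 fell (61.5%, against 3.63% of all genes) and 0 rose, with a median of -1.77 over the tested genes against -0.05 over all genes. In pairs 1 and 2 the median was -2.07 and -1.85. Without the block 4 of them passed (Elane, Camp, Mmp8 and S100a9). Leaving out WT 1, WT 2, KO 1 or KO 2 in turn, 11, 16, 13 and 13 fell, and quantile scaling left 10. In bulk RNA, fewer cells of a type and less RNA per cell cannot be told apart.

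The azurophil granule proteases and peroxidase, made early in the neutrophil lineage, were well above background on all 4 arrays. Mpo, myeloperoxidase, was at 10.18 and 9.21 in WT and 7.99 and 4.0 in KO. Ctsg, cathepsin G, was at 9.80 and 8.82 in WT and 7.18 and 4.49 in KO, and Prtn3, proteinase 3, at 6.81 and 5.97 in WT and 3.56 and 2.48 in KO. KO replicate 2 was the lowest array in each of these, below KO replicate 1 by more than the WT arrays differed. Mpo fell by 3.70 ± 0.70 (adjusted p = 0.0468), Ctsg by 3.47 ± 0.42 (0.0158) and Prtn3 by 3.37 ± 0.17 (0.00298), and none of these 3 passed without the block (0.357, 0.220 and 0.0580).

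Genes of later granules fell too. Mmp8, neutrophil collagenase, was at -1.35 and -2.75 in WT and -6.07 and -6.97 in KO, at least 5.37-fold lower. Camp (cathelicidin) fell by 2.74 ± 0.17, S100a9 (a calcium-binding protein of the cytosol) by 3.21 ± 0.19, and Hp (haptoglobin) by 4.15 ± 0.43. Cebpe, the transcription factor of late granule genes, was at 4.11 and 1.98 in WT and 0.82 and -0.89 in KO and fell by 3.08 ± 0.19 (adjusted p = 0.00355, and 0.249 without the block). Csf3r, the granulocyte colony-stimulating factor receptor, and the lysozyme gene Lyz2 did not pass, with pair differences of -0.34 and -0.19 and of 0.14 and 0.22. Lyz1 and Lyz2 are near copies and their probes may not separate them.

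The starts of the 4 azurophil genes are printed because these genes fell together. Each window is 250 bases, 5′ to 3′ on the gene's strand, from RefSeq (GRCm38.p6). The letters GAGGAA, the core bound by the myeloid factor Pu.1 and other Ets factors, were searched on both strands and are in capitals.
Elane: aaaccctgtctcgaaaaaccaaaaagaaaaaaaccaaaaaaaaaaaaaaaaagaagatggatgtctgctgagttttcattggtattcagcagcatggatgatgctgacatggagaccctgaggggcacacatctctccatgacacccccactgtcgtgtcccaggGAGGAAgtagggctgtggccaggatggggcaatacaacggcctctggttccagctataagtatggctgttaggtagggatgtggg
Prtn3: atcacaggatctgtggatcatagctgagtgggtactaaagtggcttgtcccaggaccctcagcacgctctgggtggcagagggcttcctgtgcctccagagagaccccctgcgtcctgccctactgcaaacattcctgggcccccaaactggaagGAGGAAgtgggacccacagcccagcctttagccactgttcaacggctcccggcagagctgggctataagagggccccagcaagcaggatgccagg
Ctsg: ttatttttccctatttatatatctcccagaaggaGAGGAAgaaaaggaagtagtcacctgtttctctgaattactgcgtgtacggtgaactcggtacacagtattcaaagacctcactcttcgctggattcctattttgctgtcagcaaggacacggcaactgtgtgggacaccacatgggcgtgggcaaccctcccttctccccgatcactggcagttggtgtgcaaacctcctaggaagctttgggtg
Mpo: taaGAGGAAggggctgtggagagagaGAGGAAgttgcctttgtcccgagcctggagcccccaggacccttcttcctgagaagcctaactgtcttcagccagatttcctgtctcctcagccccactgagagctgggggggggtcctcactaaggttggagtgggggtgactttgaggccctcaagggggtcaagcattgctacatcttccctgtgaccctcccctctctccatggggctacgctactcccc
They lie at chr10:79886062-79886311, plus strand (Elane), chr10:79879417-79879666, plus strand (Prtn3), chr14:56102575-56102824, minus strand (Ctsg) and chr11:87793534-87793783, plus strand (Mpo), so Prtn3 and Elane lie close together. The letters occur 1 time in each of Elane, Prtn3 and Ctsg and 2 times in Mpo, and in 23.3% of the 32851 windows of the table. A match is a description of the sequence, not evidence of binding.

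Monocyte and macrophage genes fell in part. Of 25 tested (of 31 listed), 11 fell (44.0%, against 3.63% of all genes). The 1 that rose (4%, against 3.88%) was Cd180, by 0.86 ± 0.16. The list's medians were -1.62 and -1.12 in pairs 1 and 2. Without the block 5 passed lower, and with the same 4 arrays left out in turn 8, 13, 11 and 10. Irf8, the transcription factor that directs progenitors to monocytes and dendritic cells, was at 5.80 and 4.57 in WT and 1.22 and 0.87 in KO and fell by 4.14 ± 0.25 (adjusted p = 0.00355). Csf1r, the receptor for macrophage colony-stimulating factor, was at 5.4 and 4.48 in WT and 2.18 and 1.69 in KO and fell by 3.00 ± 0.19. Cd14, Fcgr3, Adgre1, Cx3cr1 and Ms4a6c fell as well, with blocked differences of -2.66 ± 0.19, -2.84 ± 0.16, -2.46 ± 0.35, -1.96 ± 0.16 and -1.74 ± 0.23, and Adgre1 was detected on 1 KO array. Others did not pass, such as the chemokine receptor gene Ccr2, with pair differences of 0.70 and -0.01, and Slpi, a leukocyte protease inhibitor, with -2.70 and 2.32.

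The remaining myeloid lists moved less or unevenly. Among 12 eosinophil genes 0 rose and 4 fell (0% and 33.3%, against 3.88% and 3.63% of all genes), and 0 rose and 1 fell without the block in limma (6 at an unadjusted p under 0.05), and with WT 1, WT 2, KO 1 or KO 2 left out 0, 1, 1 and 0 rose and 4, 7, 4 and 5 fell. Those that fell were the ribonuclease genes Ear1, Ear2 and Ear10, which are near copies that probes may not separate, by 2.70 ± 0.36, 2.94 ± 0.32 and 2.18 ± 0.34, and Cebpe. Ear1 and Ear10 were detected on 1 KO array. The eosinophil peroxidase gene Epx differed by -3.42 and -0.86 in pairs 1 and 2 and did not pass, and the list's medians were -2.78 and -0.39. Of 20 dendritic cell genes 0 rose and 2 fell (0% and 10.0%, against 3.88% and 3.63% of all genes), and 0 rose and 0 fell without the block in limma (2 at an unadjusted p under 0.05), and with WT 1, WT 2, KO 1 or KO 2 left out 0, 0, 1 and 0 rose and 0, 3, 4 and 2 fell. The 2 were the growth factor receptor gene Flt3 (levels 4.97 and 4.06 in WT and 3.23 and 2.10 in KO) and Plac8, a cysteine-rich protein of myeloid and plasmacytoid cells (difference -1.40 ± 0.19). The dendritic list's median was -0.13, and it turned to 0.01 with quantile scaling.

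A share of megakaryocyte and platelet genes rose, with calls that depended on the block. Of 29 tested (of 32), 7 rose (24.1%, against 3.88% of all genes) and 0 fell, with medians of 0.53 and 0.62 in pairs 1 and 2. Without the block 0 passed in limma (11 at an unadjusted p under 0.05), and with WT 1, WT 2, KO 1 or KO 2 left out 0, 3, 3 and 1 rose. The list's median over the remaining arrays without WT replicate 1 was 0.58. Gp9, Gp5 and Gp1ba encode 3 chains of the platelet receptor for von Willebrand factor. Gp9 was at 3.10 and 3.21 in WT and 5.01 and 4.88 in KO, a rise of 1.79 ± 0.17 (adjusted p = 0.00958), Gp5 rose by 1.72 ± 0.23 and Gp1ba by 1.1 ± 0.18. Treml1, a receptor of platelet alpha granules, rose by 1.51 ± 0.16, and Mmrn1, the alpha granule protein multimerin, by 1.46 ± 0.22. Slc14a1, a urea transporter, and Rab27b, a GTPase of granule secretion, rose by 1.37 ± 0.16 and 1.08 ± 0.16. Pf4 (platelet factor 4) and Itga2b (integrin alpha IIb) had pair differences of 0.72 and 1.21 and 1.11 and 0.70 and did not pass (adjusted p = 0.0557 and 0.0574).

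In the erythroid list, globins and a few other genes rose while most regulators did not pass. Of 27 genes 9 rose (33.3%, against 3.88% of all genes) and 0 fell. Without the block 0 passed in limma (11 at an unadjusted p under 0.05). With each array left out in the same order 8, 9, 7 and 12 rose, and with quantile scaling 3. Hbb-bt, an adult beta globin, was at 4.10 and 3.35 in WT and 7.72 and 5.59 in KO and rose by 2.93 ± 0.35, Hbb-bs by 4.01 ± 0.54 and Hbb-b2 by 3.68 ± 0.50, with the same caution about near copies. Alas2, the first enzyme of erythroid haem synthesis, was at -6.27 and -6.97 in WT and 0.10 and -3.93 in KO, at least 5.36-fold higher. KO replicate 1 was the highest array in each of these genes, and the rise in pair 1 exceeded that in pair 2, with list medians of 1.47 and 0.44. Rhd of the Rh blood group and the carbonic anhydrase gene Car2 also rose, by 2.24 ± 0.25 and 1.46 ± 0.21. The groups overlapped for Rhd, at -0.85 and -3.13 in WT and 1.81 and -1.31 in KO (limma adjusted p = 0.638 without the block). Klf1, the erythroid transcription factor, was at -0.87 and -0.23 in WT and 1.90 and 0.81 in KO and did not pass (adjusted p = 0.0669). Tspo2 and Add2 went opposite ways, with pair differences of 1.08 and -1.1 and of 1.88 and -1.05.

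Mast cell genes rose in part. Of 21 genes 8 rose (38.1%, against 3.88% of all genes) and 0 fell, with medians of 0.87 and 0.73. Without the block 0 passed in limma (8 at an unadjusted p under 0.05). With each array left out in the same order 3, 8, 3 and 4 rose, and the median was 0.22 without WT replicate 1. Fcer1a, the alpha chain of the high-affinity IgE receptor, was at 2.70 and 2.13 in WT and 5.86 and 4.83 in KO and rose by 2.92 ± 0.19 (adjusted p = 0.00393). Its beta chain gene Ms4a2, detected on 1 WT array, rose by 2.39 ± 0.33 and the mast cell carboxypeptidase gene Cpa3 by 2.69 ± 0.48. Gata2, a transcription factor of stem and mast cells, rose by 1.08 ± 0.18. The chymase gene Cma1 passed with 2.18 ± 0.40, yet its groups overlapped. It was at -2.65 and 1.45 in WT and 0.36 and 2.81 in KO (limma adjusted p = 0.764 without the block). The basophil protease genes Mcpt8 and Prss34 lay lower in both pairs, by -0.17 and -2.10 and by -0.63 and -1.66, and did not pass.

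Marker sets of blood lineages and of endothelial and stromal cells were summed on a linear scale, relative to the array's 75th percentile, to set beside these lists. All 7 neutrophil markers were above background on every array, with a summed level of 2182 and 1116 on the WT arrays and 409 and 47.6 on the KO arrays. For the 5 monocyte markers, all above background on every array, it was 236 and 106 on the WT arrays and 14.6 and 6.33 on the KO arrays. For the 5 megakaryocyte markers it was 109 and 86.4 on the WT arrays and 206 and 202 on the KO arrays, and for the 3 mast cell markers on the array 9.57 and 14.8 on the WT arrays and 97.1 and 61.6 on the KO arrays. In each of these 4 sets the groups did not overlap, as was so for 37.3% of single genes. A linear sum is carried by its brightest members, such as Mpo and Ctsg for neutrophils and Pf4, which did not pass, for megakaryocytes. It therefore does not show that the markers of a set moved together. The markers of these 4 sets are also members of the lists above, so the sums are not separate evidence. For the erythroid markers the sum was 6.96 and 7.28 on the WT arrays and 70.6 and 10.8 on the KO arrays, with KO replicate 1 far above the other 3 arrays. B cell markers summed to 20.9 and 17.2 on the WT arrays and 13.8 and 23.8 on the KO arrays, with Pax5 at background throughout, T and NK cell markers to 101 and 76.1 on the WT arrays and 146 and 87.9 on the KO arrays, and both overlapped between the genotypes. Endothelial and stromal sums stayed low, at most 1.19 and 0.595 on any array of the table. The stem cell markers Slamf1, Procr, Mecom and Hlf, which are not part of the sort, were above background on all 4 arrays and summed to 8.63 and 11.6 on the WT arrays and 15.3 and 19.5 on the KO arrays. Whether other cells in the sort carried part of these differences was not tested.

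Stem cell surface markers split. Of 21 tested genes 3 rose and 2 fell (14.3% and 9.52%, against 3.88% and 3.63% of all genes). Of them 1 rose and 0 fell without the block in limma (6 at an unadjusted p under 0.05), and with WT 1, WT 2, KO 1 or KO 2 left out 1, 2, 1 and 1 rose and 1, 2, 2 and 1 fell. Thy1, a surface glycoprotein of stem and T cells, was at 2.51 and 3.13 in WT and 5.80 and 5.33 in KO and rose by 2.75 ± 0.30 (adjusted p = 0.0116, and 0.0434 without the block). Slamf1 (CD150), which marks long-term stem cells, was at -0.49 and 0.22 in WT and 1.64 and 1.53 in KO and rose by 1.72 ± 0.25, and Esam, an adhesion molecule of stem cells and endothelium, rose by 1.09 ± 0.16. Flt3 and Il7r, receptors of multipotent and lymphoid progenitors, fell by 1.86 ± 0.17 and 2.78 ± 0.44, Il7r being detected on 1 KO array. Of these 5 only Thy1 passed without the block. Cd34, Cd48 and Procr did not pass, with pair differences of -0.13 and -0.44, 0.51 and -0.19 and 0.54 and 1.01.

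Transcription factors linked to self-renewal went both ways, 3 of 34 up and 4 down (8.82% and 11.8%, against 3.88% and 3.63% of all genes). Of this list 0 rose and 1 fell without the block in limma (12 at an unadjusted p under 0.05), and with WT 1, WT 2, KO 1 or KO 2 left out 0, 2, 1 and 0 rose and 3, 3, 3 and 3 fell. Satb1, a chromatin organiser, was at 2.53 and 2.17 in WT and -1.83 and -1.36 in KO and fell by 3.94 ± 0.25 (adjusted p = 0.00366, 0.0170 without the block). Dach1 was at 3.20 and 3.40 in WT and -0.56 and 0.62 in KO and fell by 3.27 ± 0.27. The growth regulator Myc was at 4.07 and 4.07 in WT and 2.20 and 1.68 in KO and fell by 2.13 ± 0.20, while its relative Mycn was at 0.96 and 1.84 in WT and 3.16 and 3.50 in KO and rose by 1.93 ± 0.20. Both WT arrays held more Myc and less Mycn than both KO arrays. Mllt3 rose by 1.52 ± 0.20 and the repressor gene Gfi1 fell by 1.07 ± 0.17. Mecom and Hlf, central stem cell factors, did not pass, with pair differences of 0.16 and 0.02 and 0.67 and 0.52.

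In the adhesion and homing list 5 of 24 genes rose and 1 fell (20.8% and 4.17%, against 3.88% and 3.63% of all genes). In all, 1 rose and 0 fell without the block in limma (9 at an unadjusted p under 0.05), and with WT 1, WT 2, KO 1 or KO 2 left out 1, 4, 4 and 1 rose and 0, 1, 1 and 0 fell. Epcam, an epithelial adhesion molecule, was at -5.02 and -3.23 in WT and 1.82 and 1.51 in KO, detected on 1 WT array, and rose by 5.79 ± 0.50. The sphingosine phosphate receptor gene S1pr1 and the junction gene Jam3 rose by 1.64 ± 0.20 and 1.45 ± 0.18, and neither passed without the block (limma adjusted p = 0.0875 and 0.253). Cxcr4, the receptor that holds stem cells in the marrow, was at 2.33 and 2.00 in WT and 1.38 and 1.21 in KO and fell by 0.87 ± 0.17 (adjusted p = 0.0483, and 0.298 without the block). Among cytokine receptors 3 of 27 rose and 5 fell (11.1% and 18.5%, against 3.88% and 3.63% of all genes). Of these receptors 1 rose and 1 fell without the block in limma (9 at an unadjusted p under 0.05), and with WT 1, WT 2, KO 1 or KO 2 left out 1, 2, 1 and 1 rose and 3, 4, 4 and 3 fell. Besides those above, Il6ra fell by 2.11 ± 0.16 and Il3ra by 1.00 ± 0.19, and Csf2rb2, a second beta chain of the interleukin-3 receptor, rose by 1.33 ± 0.17. The groups overlapped for Il3ra, at 4.85 and 3.92 in WT and 4.05 and 2.71 in KO (limma adjusted p = 0.656 without the block). Pdgfrb, a growth factor receptor of stromal cells, was at -0.12 and 0.20 in WT and 2.53 and 2.20 in KO and rose by 2.32 ± 0.22.

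Some early B lymphoid genes fell. Of 19 tested genes 5 fell (26.3%, against 3.63% of all genes) and 0 rose. Without the block 0 passed in limma (6 at an unadjusted p under 0.05). Without WT replicate 1 the number was 1, and without KO replicate 1 it was 5 lower and 5 higher. Dntt, the terminal transferase of recombination, was at 7.12 and 5.91 in WT and 5.54 and 3.83 in KO and fell by 1.83 ± 0.20. Rag2 of the recombinase and Vpreb1 of the surrogate light chain fell by 1.96 ± 0.17 and 1.69 ± 0.17, and Vpreb2, a near copy of Vpreb1, by 1.55 ± 0.17. The signalling adaptor Blnk was at 1.83 and 1.74 in WT and -0.66 and 3.75 in KO, and Ly6d, a marker of B-primed lymphoid progenitors, at 1.18 and 2.79 in WT and 0.15 and 5.45 in KO. Both were lowest in KO replicate 1 and highest in KO replicate 2, and the medians of the list were -0.66 and 0.35.

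Genes of the hepatocyte and epithelial lists moved in both directions, and some of them, such as Apoe, were well above background in WT KSL cells. Of the 7 hepatocyte genes tested (of 23 listed) 0 rose and 5 fell (0% and 71.4%, against 3.88% and 3.63% of all genes), and 0 rose and 3 fell without the block in limma (6 at an unadjusted p under 0.05), and with WT 1, WT 2, KO 1 or KO 2 left out 0, 1, 0 and 0 rose and 5, 5, 5 and 5 fell. Apoc1, Ambp and Saa3, among the 5, were not above background on both KO arrays and entered the test through the WT arrays alone, so the share is inflated by the filter. With the filter on all 4 arrays 1 hepatocyte gene rose and 2 fell, with a median of -1.24. Apoc1, an apolipoprotein gene, was at 1.31 and 0.57 in WT and -4.09 and -3.74 in KO and fell by 4.86 ± 0.29, detected on 1 KO array. Its neighbour Apoe was at 5.54 and 5.62 in WT and 1.78 and 3.20 in KO and fell by 3.09 ± 0.34. Afp, alpha-fetoprotein, was at 1.73 and 1.26 in WT and -0.80 and -1.25 in KO and fell by 2.52 ± 0.16, and Ambp, a plasma protein precursor, was at least 3.79-fold lower. Among 14 epithelial genes 4 rose and 1 fell (28.6% and 7.14%, against 3.88% and 3.63% of all genes). The latter is Spint1, at -2.33 and -3.12 in WT and -4.89 and -4.93 in KO. Upk1b, Epcam and Dsp, among the 4, were not above background on both WT arrays and entered the test through the KO arrays alone. The share of rises is thus inflated by the filter. With the filter on all 4 arrays 3 epithelial genes rose and 0 fell, with a median of 0.41. The desmosome gene Perp was at 0.47 and 1.19 in WT and 4.69 and 3.84 in KO and rose by 3.43 ± 0.39. Dsp, desmoplakin, was at -4.45 and -4.22 in WT and -1.43 and -1.43 in KO and rose by 2.90 ± 0.17, detected on 1 WT array. The 4 that rose passed without the block as well.

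Among 28 genes of the TIF1 family and partners of Trim28, 1 passed besides Trim28 itself. That is 1 higher and 1 lower, 3.57% each, near the 3.88% and 3.63% of all genes. Trim24, another member of the TIF1 family, was at 1.79 and 1.81 in WT and 2.97 and 3.17 in KO and rose by 1.27 ± 0.17 (adjusted p = 0.0204, and 0.119 without the block). The HP1 genes Cbx1, Cbx3 and Cbx5 had pair differences of 0.12 and 0.05, of 0.20 and -0.17 and of 0.34 and -0.35, and Setdb1 of 1.19 and 0.58; none passed. The median of the list was 0.00.

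Growth and division genes gave no calls in either fit. None of 33 replication genes, 34 mitosis genes, 36 ribosome biogenesis genes, 36 oxidative phosphorylation genes or 25 MHC class I genes passed in limma, with 0, 2, 20, 2 and 5 at an unadjusted p under 0.05 with the block and 0, 1, 1, 0 and 2 without it. Ribosome biogenesis genes nonetheless lay below 0 in both pairs for 34 of 36 members (over all genes 5044 of 12889), with medians of -0.29 and -0.72. For oxidative phosphorylation this was 28 of 36, with medians of -0.11 and -0.32, and -0.07 over both pairs with quantile scaling. Among cell cycle inhibitors Cdkn2a, the locus of p16 and p19Arf, was at -5.58 and -4.45 in WT and -1.05 and -1.06 in KO and rose by 3.96 ± 0.30, detected on 1 WT array. Cdkn1c (p57) rose by 1.36 ± 0.24, and Cdkn1a (p21), a p53 target, had pair differences of -0.35 and -0.39 and did not pass. Of 27 p53 target genes 1 rose (Perp) and 3 fell (3.70% and 11.1%, against 3.88% and 3.63% of all genes), among them the cell death gene Pmaip1 by 1.79 ± 0.16 (limma adjusted p = 0.472 without the block). Of these targets 1 rose and 0 fell without the block in limma (3 at an unadjusted p under 0.05), and with WT 1, WT 2, KO 1 or KO 2 left out 1, 1, 1 and 1 rose and 0, 2, 1 and 0 fell.

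**Figure D4:**
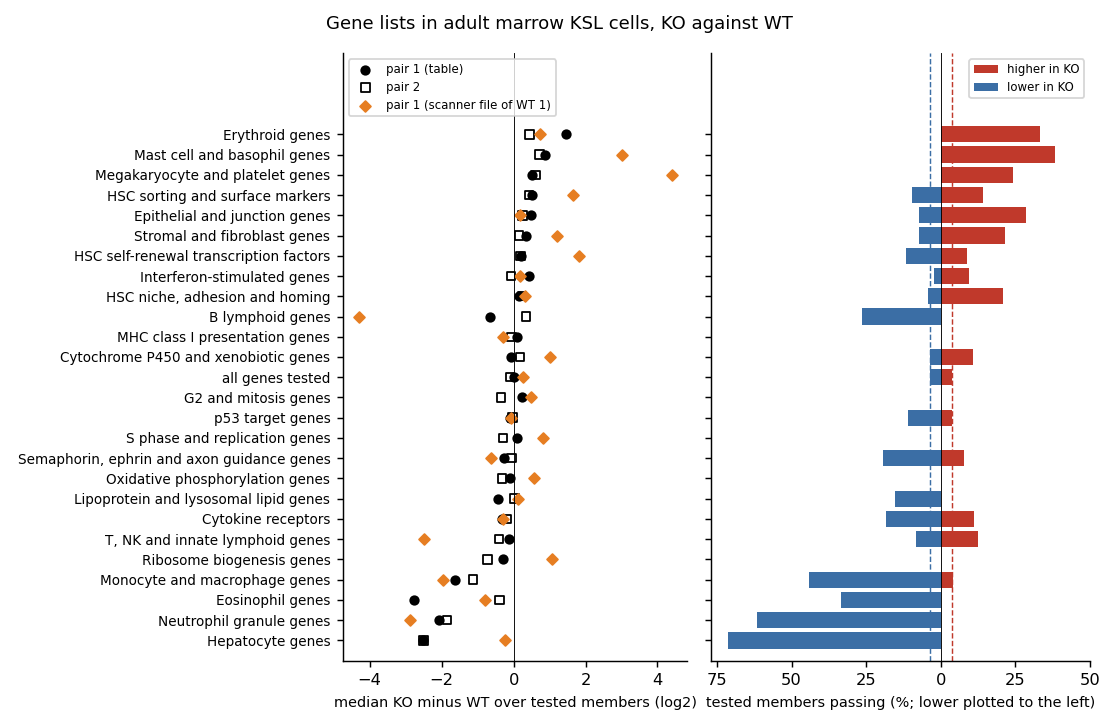
Left, median KO minus WT (log2) over the tested members of the lists with at least 4 calls and of 5 growth and MHC lists in pair 1 (filled circles), pair 2 (open squares) and pair 1 with the scanner file of WT replicate 1 (orange diamonds); right, percent of tested members that passed higher (red) or lower (blue, drawn to the left) in KO, with dashed lines at the share over all genes tested. Neutrophil genes reach 61.5% lower against 3.63% of all genes, and the pair 1 median of megakaryocyte genes is 0.53 from the table and 4.40 with the scanner file.

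With the scanner file of WT replicate 1, pair 1 held larger differences and resembled pair 2 less. The number of genes at least 2-fold apart in pair 1 went from 1420 to 3683, and the correlation with pair 2 fell from 0.71 to 0.20. Genes at least 2-fold apart in both pairs numbered 274 higher, 248 lower and 222 in opposite directions. Of the 500 genes that rose by the table, 393 were also above 0 in this version of pair 1, where 62.3% of all genes were. Of the 468 that fell, 329 were also below 0, where 37.7% of all genes were. These comparisons share KO replicate 1.

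Some genes kept the sign of their pair 1 difference in either source and others turned. The difference of Irf8 was -5.96 with the scanner file against -4.57 in the table, and that of Ly86 -7.96 against -5.79. Cyp2b10 and Ppp1r3g were at background in WT replicate 1 in either source, so their differences have no exact size. Ak7 was above background in the scanner file, at a level of -0.15, and its pair 1 difference there was 2.13. Gbp2b was above background as well, at -1.52, with a difference of 1.65. The 5 globins that passed all turned. Their differences were -2.81 for Hba-a1, -2.16 for Hba-a2, -2.08 for Hbb-b2, -2.59 for Hbb-bs and -1.07 for Hbb-bt, against 7.68, 7.49, 4.74, 5.17 and 3.62 in the table. Alas2 (-2.95) and Rhd (-0.85) turned too, while Car2 did not (3.40). Others that turned include Mdga1 (3.73 against -4.04), Dach1 (4.47 against -3.76), Nccrp1 (-3.38 against 5.07), Upk1b, Pirb, Ifi44l, Apoc1, Afp, Prtn3, Atp8b5 and Trim24. Neutrophil genes kept their direction in the median (-2.89), as did monocyte (-1.96), megakaryocyte (4.40) and mast cell genes (3.01), while ribosome biogenesis genes turned (1.06). The neutrophil median did not hold for each member. Among the azurophil genes, Elane (-2.32 against -4.67), Mpo (-0.996 against -2.19) and Ctsg (-0.66 against -2.61) fell less than in the table. Prtn3 turned (0.29 against -3.25). Camp (-7.39 against -2.82), Mmp8 (-8.30 against -4.72) and S100a9 (-7.85 against -3.45) fell further. Hp (-3.03 against -3.27) and Cebpe (-2.75 against -3.29) changed little.

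The cell type markers in that scanner file differed from those of the table column. Megakaryocyte markers summed to 0.248 with 1 of 5 above background, stem cell markers to 0.514 against 8.63 in the column, and B cell markers to 162 with 6 of 6 above background. Monocyte markers summed to 637 and erythroid markers to 393, above every column of the table. The part of these markers in the scanner result was not tested.

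**Figure D5:**
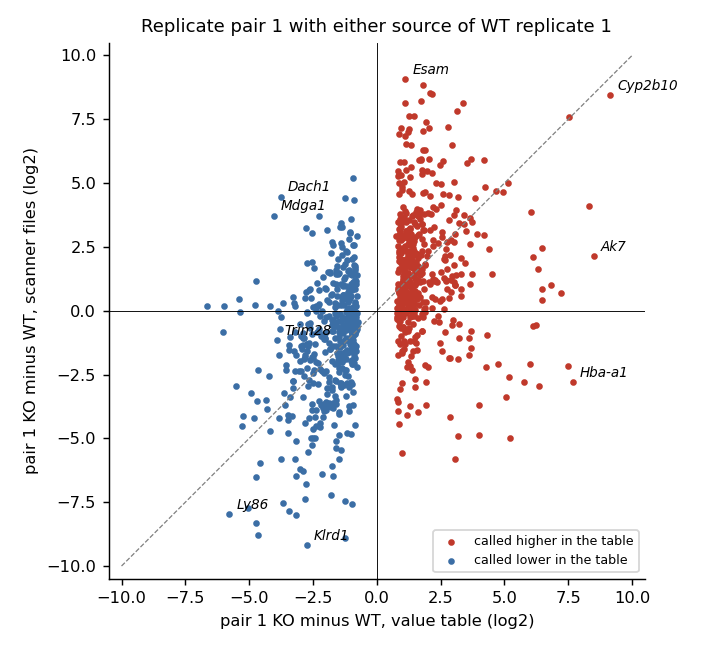
Pair 1 difference (KO minus WT, log2) of the 968 genes that passed in the value table, with WT replicate 1 taken from the table (x axis) or from the scanner file (y axis); red passed higher and blue lower, and the dashed line marks equal values. Ly86 lies far from 0 in both sources, whereas Hba-a1, Mdga1 and Dach1 change sign.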

How the data were processed

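RNA levels were measured on Agilent arrays of 1 colour. The authors' deposited value table holds a linear ratio per probe. How it was made is not given in the sources used here; for each marrow array except WT replicate 1 it equals the scanner signal divided by a constant near that array's 75th percentile, and column medians were 0.056 to 0.064. The scanner files hold the intensity of 62976 spots, background-corrected per the file headers and read with Agilent Feature Extraction 10.7.1.1 (credited to the submitters' processing notes). The intensity at the 75th percentile was 281 and 737 (WT) and 325 and 743 (KO), with 25810 to 31416 probes well above background, so the second slide measures dim probes better.

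Ratios became log2 values minus the column's 75th percentile. RefSeq accessions (GRCm38.p6) named 27235 of 55681 probes, for 20660 genes, each shown by its brightest probe. Genes above background on both arrays of either genotype were tested. For the column of WT replicate 1 a level of -3.7 replaced the scanner's flag; on its slide's KO array that level reproduces 99.2% of flags. limma 3.58.1 (lmFit, eBayes) was run with genotype and replicate pair and tested on simulated data. Replicate numbers pair arrays of 1 slide and 1 scan, and deviations of same-numbered arrays from their group means correlated at 0.56 over genes.

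Named genes are Trim28, Kit and Ly6a; by the smaller absolute pair difference, the 8 highest and 8 lowest passing genes detected on all 4 arrays and the 6 and 6 at background in the dimmer genotype, without predicted genes; up to 4 passing members of each list; and the 4 and 4 largest opposite pair differences. Further members were named for their role, with values seen. Members and lists were chosen with earlier results of these data known. The normexp alternative used gMedianSignal as foreground in place of the planned mean signal. The fetal liver arrays were not used, and some list members are not reported here.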

Additional observations from a re-analysis of the deposited data

How the results depend on the processing

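The count of 968 genes rests on the table column of WT replicate 1, on the filter and on the pairing. Without the replicate block 112 genes passed. With the scanner files 0 passed, with or without the block (limma; 706 and 556 at an unadjusted p under 0.05), and 0 with normexp (760 unadjusted). With no filter on dim probes 0 passed (2838 unadjusted), and with the filter on all 4 arrays 1459. Quantile scaling gave 445 and median scaling 476, an intensity trend 1603, and the mean of a gene's probes 730. Leaving out 1 array, which allows no block, gave 332 (without WT replicate 1) to 645 genes (without WT replicate 2), with 444 and 570 without KO replicates 2 and 1; the lone array of a genotype is then assumed to vary like the others. The pair correlation of 0.71 was 0.199 with the scanner file and 0.117 with it over genes above background on all arrays, the latter filter being chosen after seeing the data. Of 106 named genes that passed, 43 also passed without the block, 73 with quantile scaling and 72 without WT replicate 1. Sign changed with the scanner files for the difference of Nccrp1 (-0.0257, and -0.25 with normexp), Trim24 (-0.42, -0.39), Klrb1c (-0.24, -0.28), Ddc (-0.27, -0.16) and Dach1 (0.85), and with normexp alone for Alas2 (-0.90), Hbb-bs (-0.23) and Tdrd5 (-0.41). Hspa1a turned to 2.22 without WT replicate 1 and 1.68 without KO replicate 2. The opposed genes gained a call without 1 array: Slpi (1.94), Sdc1 (1.96) and Blnk (1.97) without KO replicate 1, and Hspb1 (2.99) without WT replicate 1. Beyond the settings' own construction the cause was not tested. Genes near background on the dimmer slide are the least precise.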

Other observations

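Interferon-inducible genes rose singly. Of 42 tested, 4 rose (Gbp2b, Ifi44l, Ifi44 by 1.42 ± 0.19 and Isg20 by 1.5 ± 0.22) and 1 fell (Gbp3, by 1.18 ± 0.16) (9.52% and 2.38%, against 3.88% and 3.63% of all genes), with medians of 0.43 and -0.07 in pairs 1 and 2. Of them 2 rose and 0 fell without the block in limma (5 at an unadjusted p under 0.05), and with WT 1, WT 2, KO 1 or KO 2 left out 2, 4, 2 and 2 rose and 0, 0, 0 and 0 fell; Ifi44 and Isg20 lost their call without the block (adjusted p = 0.482 and 0.201). Axon guidance genes, which steer neurons and vessels, moved both ways (7.69% and 19.2%, against 3.88% and 3.63% of all genes). Of 26 tested, 2 rose, Lrrn3 and the semaphorin gene Sema4f (5.04 ± 0.47, detected on 1 WT array). Among the 5 that fell were Celsr3 and the netrin receptor gene Unc5a (-4.81 ± 0.17, detected on 1 KO array). The ephrin receptor gene Epha7 (at least 2.73-fold lower) and Nrp1 (at least 2.25-fold lower), a co-receptor of semaphorins, fell too. Celsr3, Unc5a, Epha7 and Nrp1 entered the test through the WT arrays alone, and Sema4f through the KO arrays alone. The shares are thus inflated by the filter. With the filter on all 4 arrays 3 axon guidance genes rose and 2 fell, with a median of -0.06. In that list 2 rose and 2 fell without the block in limma (10 at an unadjusted p under 0.05), and with WT 1, WT 2, KO 1 or KO 2 left out 2, 2, 3 and 2 rose and 5, 4, 5 and 6 fell. The NK receptor gene Klrd1 was at least 2.89-fold lower, the related receptor gene Klrb1c rose by 1.61 ± 0.19, and the granzyme genes Gzmb and Gzma went up by 1.99 ± 0.28 and down by 1.88 ± 0.34, Gzma being detected on 1 KO array. In the lipid list, the receptor gene Lrp1 and the lipase gene Lpl fell by 1.93 ± 0.26 and 1.03 ± 0.18, Lpl being detected on 1 KO array.

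Of 7 germline genes tested (of 36 listed) 3 rose (42.9%, against 3.88% of all genes), and 1 rose and 0 fell without the block in limma (2 at an unadjusted p under 0.05), and with WT 1, WT 2, KO 1 or KO 2 left out 3, 2, 2 and 2 rose and 0, 1, 0 and 0 fell. By the probe shown, Spata21 and Tdrd5 were above background on no WT array. They entered the test through the KO arrays alone, so the share is inflated by the filter. With the filter on all 4 arrays 1 germline gene rose and 0 fell, with a median of -0.09. Spata21 was at -6.39 and -5.12 in WT and 0.84 and -0.31 in KO. Tdrd5 was at -6.27 and -6.97 in WT and -1.98 and -3.93 in KO. The germ cell helicase gene Ddx4 was at -0.25 and -1.63 in WT and 0.63 and -0.22 in KO. In the Hox list Hoxc9 was at least 2.30-fold higher and Hoxb2 rose by 0.89 ± 0.16. Of 22 imprinted genes 2 rose (9.09%, against 3.88% of all genes), Cdkn1c and Ddc (1.25 ± 0.18). Without the block 0 rose and 0 fell in limma (3 at an unadjusted p under 0.05). The collagen gene Col5a1 rose by 3.21 ± 0.49 and the calponin gene Cnn3 fell by 3.22 ± 0.20. Gstt1, a glutathione transferase, was at 1.40 and 1.85 in WT and 3.47 and 3.81 in KO and rose by 2.02 ± 0.16. Fbp2, a fructose bisphosphatase, was at least 2.80-fold higher, the retinoic acid receptor gene Rarb rose by 1.31 ± 0.22, and the TGF-beta receptor genes Tgfbr2 and Tgfbr3 by 1.01 ± 0.19 and 1.09 ± 0.16. 

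Genes with opposite pair differences, chosen for that pattern, included a stress gene that also differed between slides. The heat shock gene Hspb1 was at 5.39 and -2.07 in WT and 1.89 and -0.05 in KO, and the inducible chaperone gene Hspa1a at 6.03 and -2.10 in WT and 3.65 and -3.40 in KO, so replicate 1 lay above replicate 2 in either genotype. Hspa1a fell in the blocked fit by 1.84 ± 0.29 (limma adjusted p = 0.0308) and not without the block (0.980). Sdc1, a plasma cell and epithelial proteoglycan, was at 0.38 and 0.06 in WT and -2.64 and 2.18 in KO, Sphk1, a sphingosine kinase, at 0.36 and -0.31 in WT and 1.28 and -1.61 in KO, and the tetraspanin gene Tspan8 at -3.06 and -3.87 in WT and -0.78 and -4.69 in KO.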
